A study of Rattus norvegicus with 6 samples.

Results

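The genes described are 10 regulators and targets of YAP/TAZ-TEAD transcription: the coactivators Yap1 and Wwtr1 (which encodes TAZ), the DNA-binding partner Tead1, and Ccn1, Ccn2, Ankrd1, Axl, Amotl2, Lats2 and Ajuba. They were chosen by symbol, with earlier results of these data known. All 10 of them were found among the 16849 genes of the deposited count table, and among the 13018 genes that passed the filter on low counts. Transcripts had been counted in RSC96, an immortalised rat Schwann cell line, with wild type given as its genotype. PVDF@PDA cells had been kept in a hypoxia model for 24 h with a piezoelectric material, and PCL@PDA cells in the same model with a non-piezoelectric one. Per the labels, that model used medium conditioned by macrophages. The free text of the PCL@PDA samples names the other material, so their group was taken from the treatment label and the title. For the third group, Control, the labels give no hypoxia and no material, and do not say whether its medium was conditioned or for how long it was cultured. Hypoxia, medium and material thus cannot be told apart in a comparison with Control, and a difference there is one between whole conditions. Each group had 2 libraries, called replicates 1 and 3 after the sample titles, which came from batches 1 and 3.

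YAP and TAZ carry no DNA-binding domain. When the Hippo kinases LATS1 and LATS2 are inactive, they enter the nucleus and bind TEAD factors at target genes, and phosphorylation by the LATS kinases holds them in the cytoplasm. The pathway responds to cell density, to the stiffness of the substrate and to tension of the actin skeleton, and Schwann cells need YAP and TAZ for myelination. Much of this control acts on the proteins, and RNA sequencing measures neither their phosphorylation nor their location.

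The libraries held 32760123 to 35389307 counted reads. PCL@PDA replicate 3 stood apart: over genes, its chi-square against PCL@PDA replicate 1, divided by the degrees of freedom, was 10.2, where the PVDF@PDA pair gave 4.80 and the Control pair 5.56. Across the materials, PVDF@PDA replicates 1 and 3 gave 4.42 and 5.28 against PCL@PDA replicate 1, close to the PVDF@PDA pair. Against PCL@PDA replicate 3 they gave 12.5 and 12.8. Of 12 Schwann cell markers 11 were in the table, with a summed level of 211 to 217 CPM in PVDF@PDA cells, 201 to 207 in PCL@PDA cells and 174 to 186 in Control. Of these, Ncam1 (101 to 138 CPM), Pmp22 (41.9 to 56.6), Erbb3 (10.2 to 17.8) and Egr2 (2.98 to 5.95) made up most of the sum. Ncam1 and Pmp22 were called higher and Erbb3 lower with each material than in Control. S100b, Mbp, Ngfr, Gfap and Cdh19 lay below 1 CPM in every library. The 9 macrophage markers in the table summed to 8.50 to 8.96 CPM in PVDF@PDA cells, 7.33 to 8.76 in PCL@PDA cells and 7.56 to 7.89 in Control. Of the 5 that could be tested 0 were called against Control, with median log2 fold changes of 0.95 with PVDF@PDA and 1.03 with PCL@PDA at low levels. Ptprc, which marks leukocytes, ranged from 0 to 0.0287. The 6 fibroblast markers in the table summed to 814 to 835 CPM in PVDF@PDA cells, 819 to 844 in PCL@PDA cells and 858 to 864 in Control. Col1a2 (602 to 674 CPM) and Thy1 (147 to 170) made up most of that sum. Among the 6 markers Dcn lay at 0 to 0.0300 CPM. Pdgfra, Col1a1 and Pdgfrb were called higher and Col1a2 lower with each material than in Control, and Thy1 was not called. The 5 endothelial markers in the table summed to 7.07 to 7.24 CPM in PVDF@PDA cells, 6.27 to 6.45 in PCL@PDA cells and 8.21 to 8.28 in Control. In such bulk libraries fewer cells of a type and less RNA per cell cannot be told apart, and the part of other cell types in the results below was not tested.

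TEAD factors recognise the letters CATTCC, or GGAATG on the opposite strand. RefSeq promoters of the newer rat build GRCr8 were matched by symbol for 7 of the 10 genes, and not for Tead1, Ankrd1 and Lats2. In the 250 bases before the annotated start, this motif stood in 5 of the 7, against 12.1% of all 33469 promoters in the table. Ccn2 held 3 copies, and 0.0807% of all promoters held 3 or more. Those of Ccn2 began 166, 101 and 92 bases before the start. Ccn1 held 1 copy at 113 bases, Yap1 1 at 116, Amotl2 1 at 76 and Ajuba 1 at 236, and none stood in these windows of Axl and Wwtr1. The AP-1 motif TGANTCA, which reads the same on both strands, stood in 0 of the 7 and in 6.34% of all promoters. The 10 genes were listed as regulators and targets of TEAD transcription, so their TEAD motifs are not read as an excess over all promoters. A match is a run of letters and not a measured binding site. The 5 sequences with the motif are shown because they belong to genes called in at least 1 comparison below. Each is read 5′ to 3′ on the strand of its gene and ends at the base before the start, with the TEAD motif in capitals.
Yap1 (GRCr8 chr8:13451438-13451687, minus strand): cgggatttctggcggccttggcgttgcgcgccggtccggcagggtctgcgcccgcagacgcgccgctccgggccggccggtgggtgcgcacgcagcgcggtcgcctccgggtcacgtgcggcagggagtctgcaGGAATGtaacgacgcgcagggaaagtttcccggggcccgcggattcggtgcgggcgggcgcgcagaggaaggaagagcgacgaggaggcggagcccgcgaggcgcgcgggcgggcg
Ccn1 (GRCr8 chr2:237225690-237225939, minus strand): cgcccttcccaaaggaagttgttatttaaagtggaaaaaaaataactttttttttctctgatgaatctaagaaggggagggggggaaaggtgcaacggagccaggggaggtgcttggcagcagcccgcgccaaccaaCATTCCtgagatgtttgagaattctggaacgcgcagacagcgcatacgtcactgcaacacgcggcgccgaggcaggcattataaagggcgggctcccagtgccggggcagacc
Ccn2 (GRCr8 chr1:22624615-22624864, minus strand): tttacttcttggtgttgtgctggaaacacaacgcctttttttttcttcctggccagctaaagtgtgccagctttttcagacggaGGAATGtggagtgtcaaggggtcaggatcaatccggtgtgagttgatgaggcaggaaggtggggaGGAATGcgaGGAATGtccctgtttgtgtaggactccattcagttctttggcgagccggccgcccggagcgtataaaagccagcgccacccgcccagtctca
Amotl2 (GRCr8 chr8:112182376-112182625, plus strand): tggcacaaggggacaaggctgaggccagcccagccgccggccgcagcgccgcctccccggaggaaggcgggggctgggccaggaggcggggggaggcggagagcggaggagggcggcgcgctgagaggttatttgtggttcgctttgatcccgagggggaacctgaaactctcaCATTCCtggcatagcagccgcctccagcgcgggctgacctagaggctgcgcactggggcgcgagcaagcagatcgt
Ajuba (GRCr8 chr15:32000043-32000292, minus strand): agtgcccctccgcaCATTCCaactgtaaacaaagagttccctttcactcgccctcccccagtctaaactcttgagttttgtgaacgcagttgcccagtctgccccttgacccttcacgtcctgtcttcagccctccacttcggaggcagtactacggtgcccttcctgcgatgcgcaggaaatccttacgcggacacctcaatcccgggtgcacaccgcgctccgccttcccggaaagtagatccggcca

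**Figure D1:**
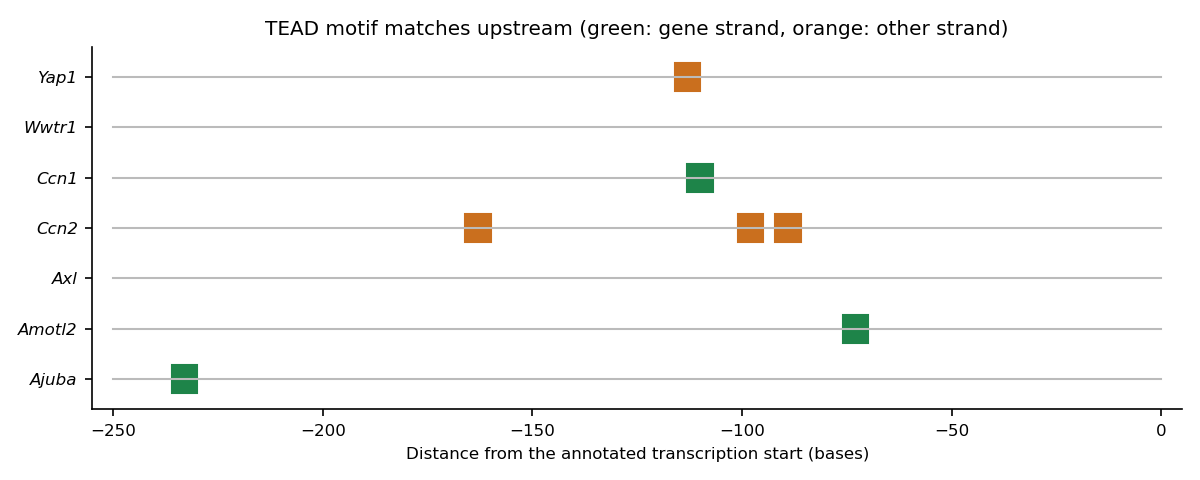
Matches of the TEAD motif in the 250 bases before the annotated start of the 7 genes with a promoter in the RefSeq table, by distance from the start in bases (GRCr8). Green boxes lie on the strand of the gene and orange boxes on the other strand; Ccn2 has 3 boxes, Yap1, Ccn1, Amotl2 and Ajuba have 1 each, and Axl and Wwtr1 have 0.

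Levels of different genes were compared as FPKM, which is scaled by gene length. Axl, a receptor tyrosine kinase for the ligand GAS6, was the highest of the 10 at 302 to 359 FPKM over the 6 libraries. Tead1 followed at 94.0 to 102 FPKM, Ccn1 at 72.5 to 112, Amotl2 at 74.9 to 94.0, Yap1 at 61.6 to 66.9, Lats2 at 41.9 to 54.7, Ajuba at 34.9 to 44.0, Wwtr1 at 24.0 to 25.9 and Ccn2 at 18.6 to 26.9. Ankrd1, an ankyrin-repeat protein of the nucleus and the sarcomere, was the lowest at 2.34 to 3.58 FPKM. Over the 6 libraries the ranges of Tead1, Ccn1 and Amotl2 overlapped, as did those of Lats2 and Ajuba and those of Wwtr1 and Ccn2. Within each library Tead1 still lay above Amotl2, most narrowly in PCL@PDA replicate 3 (98.7 against 94.0 FPKM). Wwtr1 lay above Ccn2 with PVDF@PDA (25.05 and 25.4 against 19.5 and 22.6 FPKM) and with PCL@PDA (25.9 and 25.2 against 18.6 and 22.4). In Control it lay below Ccn2 (25.6 and 24.0 against 25.8 and 26.9). Lats2 lay above Ajuba with PVDF@PDA (53.7 and 53.6 against 34.9 and 34.9 FPKM) and with PCL@PDA (53.2 and 54.7 against 35.9 and 42.5), and below it in Control (43.3 and 41.9 against 44.0 and 44.0). Yap1 lay above Wwtr1 in each library, by 2.38 to 2.78 times on the FPKM scale.

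**Figure D2:**
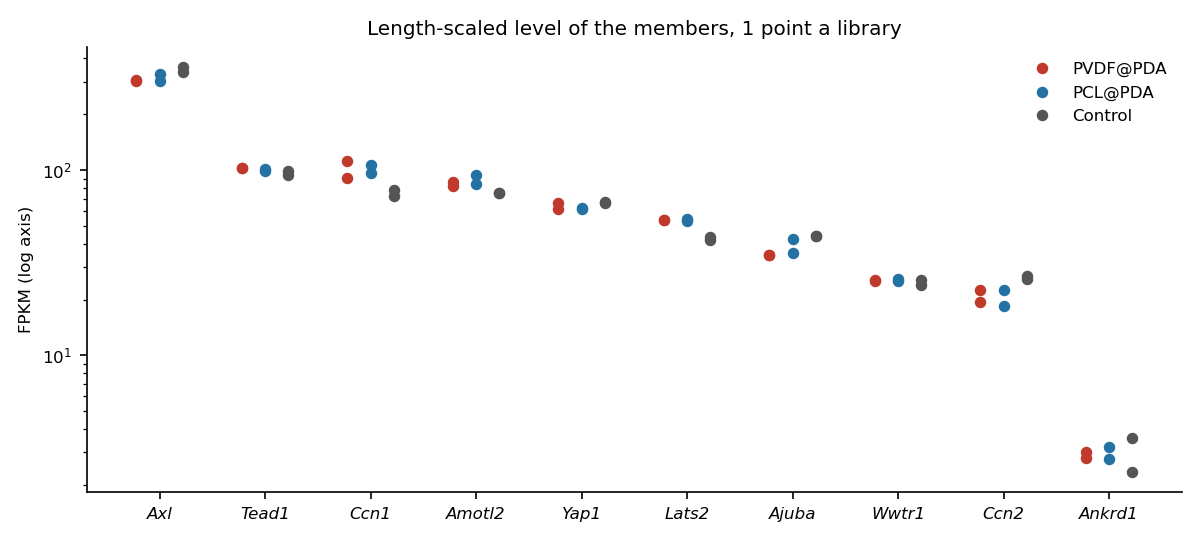
FPKM (log axis) of the 10 genes, ordered by their mean, with 1 point for each library of PVDF@PDA, PCL@PDA and Control. Axl lies at 302 to 359 FPKM, Ankrd1 at 2.34 to 3.58, and the other 8 genes between 18.6 and 112.

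Setting PVDF@PDA beside PCL@PDA compares a piezoelectric material with a non-piezoelectric one, and 0 of the 10 genes passed. The materials are also different polymers, so piezoelectricity and their other properties cannot be told apart here. Over all 13018 genes edgeR's quasi-likelihood test called 8, or 0.0615% (0.0538% higher and 0.00768% lower with PVDF@PDA). A fit that included batch called 59 genes and again 0 of the 10. Among the 10 genes 1 had an unadjusted p below 0.05, against 1105 of all genes, and DESeq2 and limma also called 0 of the 10. That gene was Ajuba, a LIM protein that binds LATS kinases. It had 112 and 112 CPM with PVDF@PDA, against 116 and 135 CPM with PCL@PDA. Both PVDF@PDA values lay below both PCL@PDA values, and the gap came mainly from PCL@PDA replicate 3 (log2 fold change -0.16, SE 0.06, adjusted p = 0.464). Without PCL@PDA replicate 1 the difference was -0.27 (adjusted p = 0.00203), and Amotl2 then also passed (-0.15, adjusted p = 0.0485), so that 2 of the 10 were lower while 827 genes of all were called.

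The 95% intervals below rest on the spread between these libraries, which may be technical and was estimated largely from other genes. They describe differences between these libraries and do not bound a difference between the materials. The coactivator Yap1 differed by 0.05 on the log2 scale (95% interval -0.05 to 0.16), Wwtr1 by -0.01 (-0.19 to 0.17) and Tead1 by 0.04 (-0.06 to 0.14). The secreted proteins Ccn1 and Ccn2 differed by 0.01 (-0.14 to 0.16) and 0.04 (-0.13 to 0.21). Lats2 differed by -0.0015 (-0.11 to 0.11), Axl by -0.05 (-0.15 to 0.05) and Amotl2 by -0.08 (-0.18 to 0.03). Ankrd1, with few reads, differed by -0.03 with a wide interval of -0.46 to 0.39. The median over the 10 was -0.0061, against 0.0045 over all genes tested, and the median size was 0.04 against 0.09. Groups did not overlap for 3 of the 10 genes, which were Yap1 and Tead1 (higher with PVDF@PDA) and Ajuba (lower), against 38.0% of all genes (19.2% higher and 18.9% lower).

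Against Control, 5 of the 10 genes passed with PVDF@PDA, 2 higher and 3 lower, while 15.7% of all genes were called by edgeR (884 higher or 6.79%, and 1158 lower or 8.90%; with scaling by library totals alone, 1164 higher and 879 lower). With PCL@PDA 7 of the 10 passed, 3 higher and 4 lower, while 20.1% were called (1142 higher or 8.77%, and 1474 lower or 11.3%; with that scaling, 1481 higher and 1070 lower). Both comparisons use the same Control libraries and are not independent of each other. The 10 genes were chosen with earlier results of these data known, so their counts are not read as an excess over all genes. They are also well expressed, with 9 above a mean of 30 CPM against 46.3% of all genes tested. The part of this in their counts was not tested. The median log2 fold change of the 10 was -0.04 with PVDF@PDA and -0.01 with PCL@PDA, against 0.0057 and 0.0089 over all genes, and calls went in both directions. The median size was 0.18 and 0.19, against 0.15 and 0.17. Groups did not overlap for 8 of the 10 with PVDF@PDA (4 higher and 4 lower), against 58.5% of all genes (29.4% higher and 29.2% lower). With PCL@PDA they did not overlap for 7 (3 higher and 4 lower), against 56.2% (28.3% and 27.8%).

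**Figure D3:**
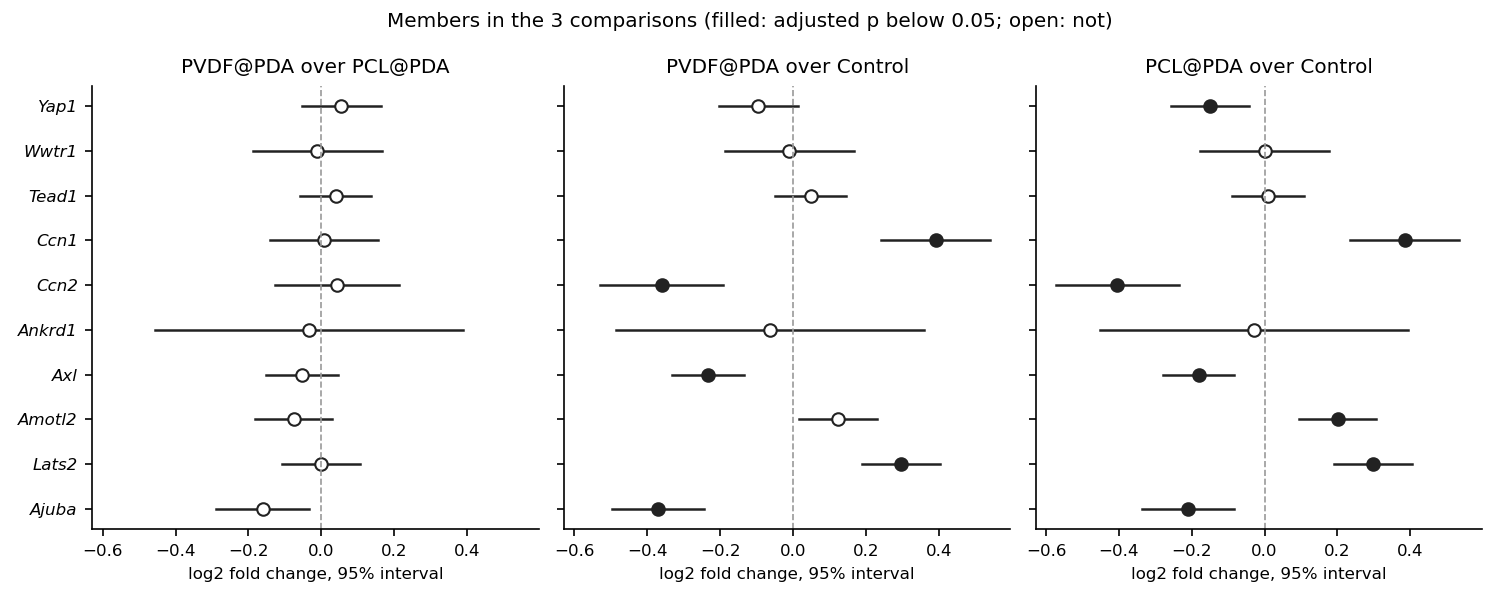
Log2 fold change of the 10 genes in the 3 comparisons, with 95% intervals from the quasi-likelihood fit; filled points passed an adjusted p of 0.05. In the first panel 0 points are filled; against Control, Ccn1 and Lats2 lie above 0 and Ccn2, Axl and Ajuba below 0 with both materials.

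Of the coactivator genes and Tead1 only Yap1 passed, and only with PCL@PDA. Yap1 (gene ID 363014) had 264 and 247 CPM with PVDF@PDA and 247 and 245 with PCL@PDA, against 274 and 272 in Control. All 4 material values lay below both Control values. With PVDF@PDA the log2 fold change was -0.10 (SE 0.05, adjusted p = 0.245), and with PCL@PDA Yap1 was called lower by a narrow margin (-0.15, SE 0.05, adjusted p = 0.0404). That call ended without PVDF@PDA replicate 1 or 3 (adjusted p = 0.0700 and 0.0704), without Control replicate 1 (0.231) or 3 (0.135), with scaling by library totals alone (0.132), with only the 4 libraries compared (0.0739) and with limma on FPKM (0.180 and 0.183 with pseudocounts of 1 and 0.1).

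Wwtr1 (gene ID 295062) had 38.3 and 38.7 CPM with PVDF@PDA and 39.7 and 38.0 with PCL@PDA, against 40.2 and 37.4 in Control. The 3 groups overlapped, and the log2 fold changes were -0.01 (95% interval -0.19 to 0.17) and 0.00032 (-0.18 to 0.18). Tead1 (gene ID 361630) had 1068 and 1063 CPM with PVDF@PDA and 1058 and 1015 with PCL@PDA, against 1059 and 1001 in Control. Its log2 fold changes were 0.05 (-0.05 to 0.15) and 0.01 (-0.09 to 0.11), neither of which passed (adjusted p = 0.559 and 0.923).

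The best known secreted targets moved in opposite directions. CCN1 (CYR61) and CCN2 (CTGF) are matricellular proteins of 1 family that bind integrins, and both genes are widely used as readouts of YAP/TAZ activity. Ccn1 (gene ID 83476) had 179 and 220 CPM with PVDF@PDA and 190 and 207 with PCL@PDA, against 147 and 157 in Control. All 4 material values lay above both Control values, and the PVDF@PDA libraries were the furthest apart. Ccn1 rose by 0.39 on the log2 scale with PVDF@PDA (SE 0.07, 95% interval 0.24 to 0.54, adjusted p = 0.000341) and by 0.38 with PCL@PDA (SE 0.07, 0.24 to 0.53, adjusted p = 0.000336). Within batch 1 the differences were 0.28 and 0.37, and within batch 3 they were 0.49 and 0.40. The first call held under each of the 16 alternatives, by a narrow margin without PVDF@PDA replicate 3, where the value was 0.23 (adjusted p = 0.0485). The second ended only without PCL@PDA replicate 3 (0.32, adjusted p = 0.165).

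Ccn2 (gene ID 64032) had 45.2 and 52.3 CPM with PVDF@PDA and 43.3 and 51.4 with PCL@PDA, against 61.5 and 63.7 in Control. All 4 material values lay below both Control values, the reverse of Ccn1. Ccn2 fell by 0.36 on the log2 scale with PVDF@PDA (SE 0.08, 95% interval -0.53 to -0.19, adjusted p = 0.00157) and by 0.40 with PCL@PDA (SE 0.08, -0.57 to -0.24, adjusted p = 0.000306). Within batch 1 the differences were -0.44 and -0.51, and within batch 3 they were -0.28 and -0.31. The first call ended without PVDF@PDA replicate 1 (-0.26, adjusted p = 0.105) and with limma on FPKM (0.0734 and 0.0749), and the second held under each of the 16 alternatives. The 5 genes whose promoters are printed above were picked as called genes with a TEAD motif, so that each was called is no result. Among them Ccn1 and Amotl2 were called higher in at least 1 comparison with Control, and Ccn2, Ajuba and Yap1 lower. Axl, with no motif in that window, was called lower with both materials.

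**Figure D4:**
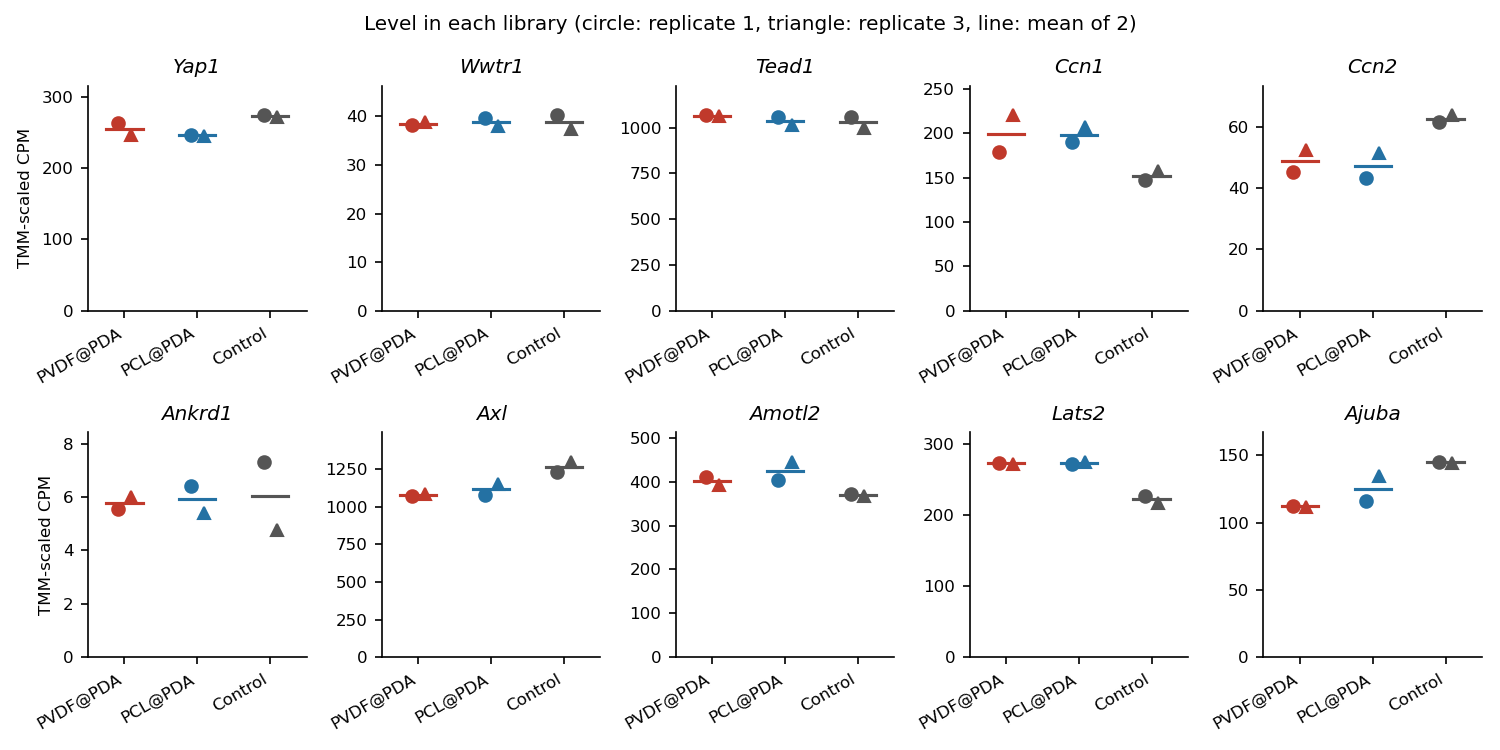
TMM-scaled CPM of the 10 genes in each library, with axes that start at 0; circles are replicate 1, triangles replicate 3 and lines the mean of the 2 libraries. Ccn1 and Lats2 lie above both Control libraries in all 4 material libraries, and Ccn2, Axl and Ajuba lie below them.

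Lats2 and Amotl2, targets that act back on YAP, lay above Control in all 4 material libraries. LATS2, a kinase that phosphorylates YAP and TAZ, is itself encoded by a target gene of the pathway. Lats2 (gene ID 305922) had 273 and 272 CPM with PVDF@PDA and 271 and 275 with PCL@PDA, against 226 and 217 in Control. The 4 material libraries lay within a few CPM of each other and apart from Control. Lats2 rose by 0.30 on the log2 scale with either material (SE 0.05, adjusted p = 3.93e-05 for PVDF@PDA and 3.16e-05 for PCL@PDA), and both calls held under each of the 16 alternatives.

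Amotl2 (gene ID 65157) encodes an angiomotin-like protein that binds YAP at cell junctions. It had 412 and 393 CPM with PVDF@PDA and 403 and 446 with PCL@PDA, against 371 and 368 in Control, with all 4 material values above both Control values. Amotl2 rose by 0.20 with PCL@PDA (SE 0.05, adjusted p = 0.00437), and the call ended without PCL@PDA replicate 3 (0.12, adjusted p = 0.0822) or Control replicate 3 (0.19, adjusted p = 0.0545). With PVDF@PDA the log2 fold change was 0.12 (SE 0.05, adjusted p = 0.106). It passed in a fit that included batch (0.12, adjusted p = 0.0346), with only the 4 libraries compared (0.0196), with scaling by library totals alone (0.0257), and without PCL@PDA replicate 1 or 3 (0.0151 and 0.0223).

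Axl and Ajuba were lower with the materials. Axl (gene ID 308444) had 1069 and 1080 CPM with PVDF@PDA and 1079 and 1150 with PCL@PDA, against 1230 and 1297 in Control. All 4 material values lay below both Control values. Axl fell by 0.23 on the log2 scale with PVDF@PDA (SE 0.05, adjusted p = 0.000377) and by 0.18 with PCL@PDA (SE 0.05, adjusted p = 0.00516). The first call held under each of the 16 alternatives, and the second ended without Control replicate 3 (-0.14, adjusted p = 0.137) and with limma on FPKM (0.105 with either pseudocount).

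Ajuba (gene ID 85265) had 112 and 112 CPM with PVDF@PDA and 116 and 135 with PCL@PDA, against 145 and 144 in Control, again with no overlap. Ajuba fell by 0.37 with PVDF@PDA (SE 0.06, 95% interval -0.50 to -0.24, adjusted p = 1.64e-05), a call that held under each of the 16 alternatives. With PCL@PDA it fell by 0.21 (SE 0.06, -0.34 to -0.08, adjusted p = 0.0127). Without PCL@PDA replicate 3 the value was -0.33. The call ended without PCL@PDA replicate 1 (-0.10, adjusted p = 0.233), without Control replicate 1 (0.0889) or 3 (0.0561), with scaling by library totals alone (0.0587) and with limma on FPKM (0.162 and 0.164).

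Ankrd1 (gene ID 27064), the third gene often read as a YAP/TAZ target, had 166 to 244 reads per library. It lay at 5.56 and 5.99 CPM with PVDF@PDA and 6.42 and 5.40 with PCL@PDA, against 7.32 and 4.76 in Control. The Control libraries spanned the values of both material groups. Its log2 fold changes were -0.06 (95% interval -0.49 to 0.36) and -0.03 (-0.45 to 0.39). These intervals take in the estimates for Ccn2 in both comparisons and that for Ccn1 with PCL@PDA (0.38), while that for Ccn1 with PVDF@PDA (0.39) lies just above.

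Other genes of the pathway were counted beside these 10. Of 22 listed upstream Hippo genes 20 were tested, and against Control 0 were higher and 2 lower with PVDF@PDA, and 0 higher and 5 lower with PCL@PDA. Over all genes tested 8.90% were lower with PVDF@PDA and 11.3% with PCL@PDA, and neither count is read as particular to the list. The median log2 fold change of the list was -0.03 with PVDF@PDA and -0.07 with PCL@PDA, beside 0.0057 and 0.0089 over all genes. Map4k4, a kinase that activates LATS, fell to 676 ± 17.1 CPM in PVDF@PDA cells and 672 ± 43.6 in PCL@PDA cells, against 798 ± 29.4 in Control (SD, n = 2; log2 -0.24 and -0.25, adjusted p = 0.000489 and 0.000271 in edgeR). Amotl1, a second angiomotin-like gene, fell to 119 ± 0.550 CPM in PVDF@PDA cells and 117 ± 5.88 in PCL@PDA cells, against 139 ± 2.83 in Control (log2 -0.22 and -0.24, adjusted p = 0.00864 and 0.00262). The kinase gene Taok1 fell with PCL@PDA (-0.22, adjusted p = 0.00130) and had a log2 fold change of -0.10 with PVDF@PDA (0.169). The scaffold gene Sav1 (-0.28, 0.0172) and Lats1, the sister kinase of Lats2 (-0.19, 0.0217), were also called lower with PCL@PDA. With PVDF@PDA they had log2 fold changes of -0.24 (0.0558) and -0.17 (0.0511). Lats1 was named after its values were seen. Mob1a, which encodes a LATS cofactor, did not pass with either material (0.01 and -0.01), nor did the protocadherin Fat1 with PCL@PDA (0.06).

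These counts varied with the libraries. Map4k4 passed in every alternative. In a fit that included batch, 5 genes of the list were lower with PVDF@PDA. With limma on FPKM 1 was lower with each material, and with scaling by library totals alone 1 was higher and 3 were lower with PCL@PDA. The Amotl1 call with PVDF@PDA ended without PVDF@PDA replicate 1 (0.0872) or 3 (0.0741) or Control replicate 3 (0.103). The Sav1 call ended when PCL@PDA replicate 3 or Control replicate 1 was left out (-0.18 and -0.22, adjusted p = 0.223 in both cases) and with scaling by library totals alone (0.0505). The Lats1 call did so too (0.112, 0.121 and 0.0730), and also without Control replicate 3 (0.115). With PVDF@PDA the list had 1 call without PVDF@PDA replicate 1, PVDF@PDA replicate 3 or Control replicate 3, 7 without PCL@PDA replicate 1 and 8 without PCL@PDA replicate 3. With PCL@PDA it had 3 without PCL@PDA replicate 3 or Control replicate 1. Between the materials 0 of 20 passed, and 2 were higher with PVDF@PDA when PCL@PDA replicate 1 was left out.

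Of 16 further genes known as YAP/TAZ targets 12 were tested, and 3 were lower with each material and 0 higher, beside the same 8.90% and 11.3% lower over all genes. Their median log2 fold change was -0.11 with PVDF@PDA and -0.01 with PCL@PDA, against 0.0057 and 0.0089 over all genes. Between the materials 0 of 12 passed. Ccdc80, a matrix protein, fell to 35.6 ± 0.122 CPM in PVDF@PDA cells and 35.8 ± 2.22 in PCL@PDA cells, against 60.8 ± 3.65 in Control (SD, n = 2; log2 -0.77 in both, adjusted p = 6.60e-10 and 5.51e-10 in edgeR). Myof, the membrane protein myoferlin, fell to 1202 ± 19.0 CPM in PVDF@PDA cells and 1216 ± 7.40 in PCL@PDA cells, against 1543 ± 0.919 in Control (log2 -0.36 and -0.34, adjusted p = 6.58e-08 and 1.46e-07). Both genes passed in every alternative. Dock5, an activator of the GTPase RAC, fell by 0.21 and 0.25 (adjusted p = 0.0285 and 0.00690). Its calls ended without Control replicate 3 (-0.12 and -0.15, adjusted p = 0.480 and 0.275), and with limma on FPKM (0.314 and 0.313 with PVDF@PDA, 0.209 and 0.207 with PCL@PDA). The first also ended without PVDF@PDA replicate 1 (0.0859) or 3 (0.200), with DESeq2 (0.0664) and with scaling by library totals alone (0.0857). Gadd45a (-0.13 with either material, adjusted p = 0.0652 and 0.0560) and Asap1 (0.04 and 0.06, 0.699 and 0.429) did not pass. The counts were 2 without Control replicate 3, and 2 for PVDF@PDA without either of its libraries.

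**Figure D5:**
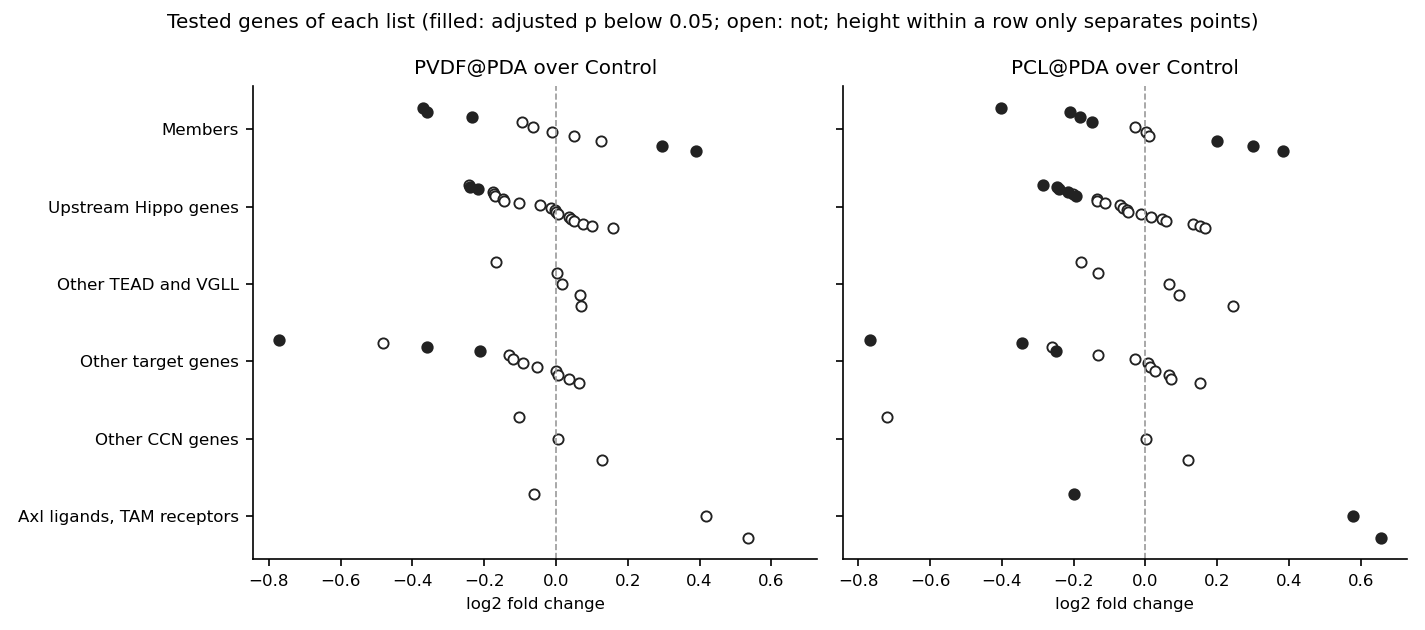
Log2 fold change against Control of the tested genes of each list, with PVDF@PDA on the left and PCL@PDA on the right; filled points passed an adjusted p of 0.05. Among the upstream Hippo genes 2 and 5 points are filled and among the other target genes 3 and 3, all below 0, whereas the 10 genes of the first row are called on both sides of 0.

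The other TEAD genes encode sister factors of TEAD1, and the VGLL genes encode cofactors of TEAD. Of these genes 0 of 5 tested were called in each comparison (median log2 fold change 0.02 and 0.07 against Control). The most abundant were Vgll4 (log2 0.02 with PVDF@PDA and 0.09 with PCL@PDA) and Vgll3 (0.0026 and -0.13). Of the other CCN genes 0 of 3 tested passed in each comparison (median 0.0054 and 0.0010), with Ccn4 at 0.13 and 0.0010 and Ccn3 at 0.0054 and 0.12. Among the ligands and sister receptors of AXL, 0 of 3 tested passed with PVDF@PDA, where 15.7% of all genes did, and 3 with PCL@PDA, where 20.1% did (median log2 fold change 0.42 and 0.58). Between the materials 0 passed. The ligand gene Gas6 had 7.32 and 7.24 CPM with PVDF@PDA and 7.70 and 7.30 with PCL@PDA, against 4.44 and 5.59 in Control. Its log2 fold changes were 0.54 (adjusted p = 0.0522) and 0.58 (adjusted p = 0.0275), and the first passed in 8 of the 16 alternatives, with adjusted p from 0.0338 to 0.378. The receptor gene Tyro3 rose by 0.66 with PCL@PDA (0.0159) and had a log2 fold change of 0.42 with PVDF@PDA (0.171), and the ligand gene Pros1 fell by 0.20 (0.0479) and lay at -0.06 with PVDF@PDA (0.643). Of these 3 calls 0 remained without PCL@PDA replicate 3 (adjusted p = 0.0612 for Gas6, 0.110 for Tyro3 and 0.195 for Pros1) or without Control replicate 1 (0.295, 0.177 and 0.105). The call of Gas6 also ended without PCL@PDA replicate 1 (0.0866) and with DESeq2 (0.0563). That of Pros1 held in 4 of the 16 alternatives. It also ended without PVDF@PDA replicate 1 (0.0685) or 3 (0.0703) or Control replicate 3 (0.299), and with DESeq2 (0.0636), the non-robust fit (0.0522), the stricter filter on CPM (0.0528), library totals (0.130), only the 4 libraries compared (0.0725) and limma (0.143 and 0.142).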

How the data were processed

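The deposited table holds whole-number read counts per gene in 6 libraries, not normalized by the authors, and 1 deposited table per library holds FPKM, scaled by the authors by gene length and library total. The submitters' processing notes list mRatBN7.2, a rat assembly, and DESeq2 1.4.5, and do not say what each was used for. How reads were aligned and counted, by which annotation and on which strand, is not given in the sources used here. In the newer annotation GRCr8 none of the 10 genes overlaps another tested gene.

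The deposited counts went into edgeR 4.0.16 under R 4.3.3, with TMM factors, filterByExpr and a robust quasi-likelihood fit of 3 group means over 6 libraries. The filter kept 13018 genes and removed 3831. A gene was called where its 2-sided p, adjusted over these genes by Benjamini and Hochberg, was below 0.05. CPM are TMM-scaled, fold changes are log2 values, and SE and 95% intervals come from the fit. The floor of 3 counts corresponds to 0.0848 to 0.0916 CPM and covers counting error only. Single values of some cell type markers are not reported here.

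The labels do not say that libraries came from separate cultures, so p-values measure only the spread between these libraries, which may be technical. In the edgeR fit each gene had 3 residual degrees of freedom, against a median of 50.3 prior ones borrowed from the other genes. A gene's p-value, SE and interval thus rest mostly on the spread over many genes and not on its own 2 libraries per group. No 2 libraries of a group agreed within sampling noise. Replicate numbers match the labels' batches and pair the libraries on that ground. Deviations of same-batch libraries correlated over 11569 genes at r = -0.01 between PVDF@PDA and PCL@PDA, 0.06 between PVDF@PDA and Control and 0.16 between PCL@PDA and Control.

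Alternatives were a replicate block, RLE or library-total scaling, other filters, DESeq2 1.42.0, a non-robust fit, only the 4 libraries compared, limma 3.58.1 on log2(FPKM + 1) or log2(FPKM + 0.1), and leaving out each library, 16 in all. The members, lists and rules were chosen with earlier results of these data known. All 10 members were named. From each pathway list the text names every gene called between the materials and, against Control, up to 4 called genes with the smallest p and up to 2 abundant genes not called.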

Additional observations from a re-analysis of the deposited data

How the results depend on the processing

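Of 12 calls among the 10 genes, 6 held under all 16 alternatives, 0 changed direction, and the cause of each change below was not tested. The replicate block raised the calls between the materials to 59 genes and made Amotl2 pass with PVDF@PDA; it changed no other call of the 10 genes. Between the materials all genes called numbered 5 with scaling by library totals, 17 with no filter on low counts, 5 with DESeq2 and 0 with limma on FPKM (847 and 844 at an unadjusted p below 0.05), and 0 to 827 with 1 library left out (0 without PVDF@PDA replicate 3, 827 without PCL@PDA replicate 1, 2 without PCL@PDA replicate 3, and 13 without either Control library); the 10 genes then had 0 to 2 calls. A lone library was assumed to vary like the other groups. Against Control, limma on FPKM called 1164 and 1158 genes with PVDF@PDA and 1613 and 1618 with PCL@PDA, where 4 of the 10 genes then passed. With 1 library left out these counts ran from 1030 to 2869 (PVDF@PDA) and 1346 to 3173 (PCL@PDA), with 4 to 6 and 3 to 6 of the 10 genes called. The PVDF@PDA count was 1183 or 1030 when its own replicate 1 or 3 was left out, and 1085 or 1267 when that of Control was. The PCL@PDA count was 1346 when Control replicate 1 was left out, and 3 of its 10 genes passed when Control replicate 3 was.

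Among the values of the 10 genes signs turned only for differences that did not pass. For Wwtr1 against Control they were 0.026, 0.025 and 0.026 with PVDF@PDA (library totals, limma with pseudocounts 1 and 0.1) and -0.00099, -0.0013 and -0.0017 with PCL@PDA (RLE, no filter, DESeq2). For Ankrd1 they were 0.0013 with PVDF@PDA (limma, 0.1) and 0.013, 0.024 and 0.037 with PCL@PDA (library totals, limma with 1 and 0.1). Between the materials Ccn1 was at -0.0059 and -0.0060 (limma) and Lats2 at 0.00055 (RLE) and 0.00020 (DESeq2). With 1 library left out, between the materials log2 values ran from -0.0417 to 0.0210 for Wwtr1, -0.16 to 0.15 for Ccn1, -0.0751 to 0.17 for Ccn2, -0.15 to 0.10 for Ankrd1 and -0.0106 to 0.0076 for Lats2. For PVDF@PDA against Control they ran from -0.0668 to 0.0415 for Wwtr1 and -0.35 to 0.28 for Ankrd1. For PCL@PDA against Control they ran from -0.0540 to 0.0524 for Wwtr1, -0.0332 to 0.0498 for Tead1 and -0.31 to 0.31 for Ankrd1.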

Other observations

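The reads of Ccn1 and Ccn2 can be set against each other within each library, where scaling between libraries plays no part. There were 3.95 and 4.22 reads of Ccn1 for each read of Ccn2 with PVDF@PDA and 4.39 and 4.03 with PCL@PDA, against 2.39 and 2.47 in Control. The ratio was higher in each of the 4 material libraries than in either Control library, and the material groups overlapped. Lats2 had 2.71 and 2.75 reads for each read of its sister kinase gene Lats1 with PVDF@PDA and 2.67 and 2.88 with PCL@PDA, against 2.02 and 1.92 in Control. These ratios were chosen after the values of the genes were seen and were not tested.

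Replicate 3 lay on the same side of replicate 1 in all 3 groups for 5 of the 10 genes, against 3899 of the 13018 genes tested. Ccn1, Ccn2 and Axl were higher in replicate 3 of each group, and Yap1 and Tead1 were lower. For Ccn1 the log2 difference of replicate 3 from replicate 1 was 0.30 with PVDF@PDA and 0.13 with PCL@PDA, against 0.10 in Control. For Ccn2 it was 0.21, 0.25 and 0.05 in the same order. The direction of Ccn1 and Ccn2 between replicates was thus shared, unlike their direction against Control.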
